A study of Arabidopsis thaliana with 6 samples.

Results

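Auxin synthesis and early auxin response were followed through 5 genes of *Arabidopsis thaliana*, each read by 1 probe set of the Affymetrix ATH1 array. They were taken by gene name, with earlier results of these data known, so a direction they share is not independent evidence. The annotation gives each of their probe sets to 1 gene. They are *YUC2* (AT4G13260) and *YUC6* (AT5G25620) for synthesis, *GH3.3* (AT2G23170) and *GH3.5* (AT4G27260, also called *WES1*) for conjugation, and the homeobox gene *HAT2* (AT5G47370). They make up 5 of 22746 probe sets once the Affymetrix controls are left out. Testing was limited to the 14456 probe sets that reached a signal of 100 on 3 or more of the 6 arrays, which held 4 of the 5.

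The *bp er fil-10* suppressor line (3 arrays) was compared with its *bp er* parent line (3 arrays). Both lines carry *bp-2*, a mutation of the KNOX homeobox gene *BREVIPEDICELLUS*, and *er*, a mutation of the *ERECTA* receptor kinase gene, in a Landsberg background, so that *fil-10* is the allele that differs. *fil-10* is a recessive allele, induced with EMS, of the YABBY gene *FILAMENTOUS FLOWER*, and this line had been backcrossed to *bp er*. RNA came from whole inflorescences of 5-week-old plants with floral stages 1 to 13, grown at 22 °C with days of 16 h, and the arrays are labelled as biological replicates 1 to 3 of each line. No wild type was hybridised here, and the only *fil* allele on the arrays is *fil-10*. No probe set was named for *FIL* or *BP* in the annotation used, so the genotype labels were not checked against those transcripts. The labels do not say whether replicates were grown apart, so the p-values measure the spread between these arrays.

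The values are MAS signals, linear hybridization intensities that the authors had scaled to a target of 500 on each array. The median signal was 203 to 215 on the *bp er fil-10* arrays and 193 to 211 on the *bp er* arrays. In limma, 1 of the 14456 probe sets kept passed an adjusted p under 0.05, which is 0.00692%, and 540, or 3.74%, passed with the replicate number as a block. Of the floral organ markers listed, 1 had a named probe set, *UFO*, and its signal was under 100 on all 6 arrays. AT5G07230, entered in the tapetum list, had 6252.6, 6566.9 and 8187.1 in *bp er fil-10*, against 5567.2, 4735.1 and 4781.8 in *bp er* (log2 difference 0.47, limma adjusted p = 0.197). Its genotypes did not overlap, as in 14.2% of the probe sets kept in this direction. *AMS*, the other tapetum gene, had 99.1 to 136.0 in *bp er fil-10* and 117.1 to 131.9 in *bp er*. The root gene *PYK10* was under 100 on every array. The part of these tissues in the results below was not tested. In whole inflorescences, fewer cells of a type and less RNA per cell cannot be told apart.

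Auxin is made mainly from tryptophan through indole-3-pyruvate, and YUCCA flavin monooxygenases, among them YUC2 and YUC6, catalyse the last step to indole-3-acetic acid. GH3 enzymes such as GH3.3 and GH3.5 join the free hormone to amino acids, which lowers its active pool, and their genes are themselves switched on within minutes to hours of auxin treatment. *HAT2* encodes a homeodomain-leucine zipper protein of class II and was first described as an auxin-inducible gene. Transcripts of these early genes are therefore used as readouts of auxin response, and in flowers *YUC2* and *YUC6* are known for overlapping roles.

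For all 5 genes the log2 signal averaged higher in *bp er fil-10* than in *bp er*, by 0.36 to 0.64. Of the 14456 probe sets kept, 8150 also had a positive difference, and the median over all of those kept was 0.06. limma called none of the 4 genes that were tested (adjusted p under 0.05). The genotypes did not overlap for *YUC2* and overlapped for *YUC6*, *GH3.3*, *GH3.5* and *HAT2*. *YUC2* was thus 1 of the 4 members kept that lay higher in *bp er fil-10* without overlap, as did 14.2% of all probe sets kept. At an unadjusted p under 0.05 the test passed 0 of the 4, and 1414 probe sets higher and 1021 lower among the 14456 kept.

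**Figure D1:**
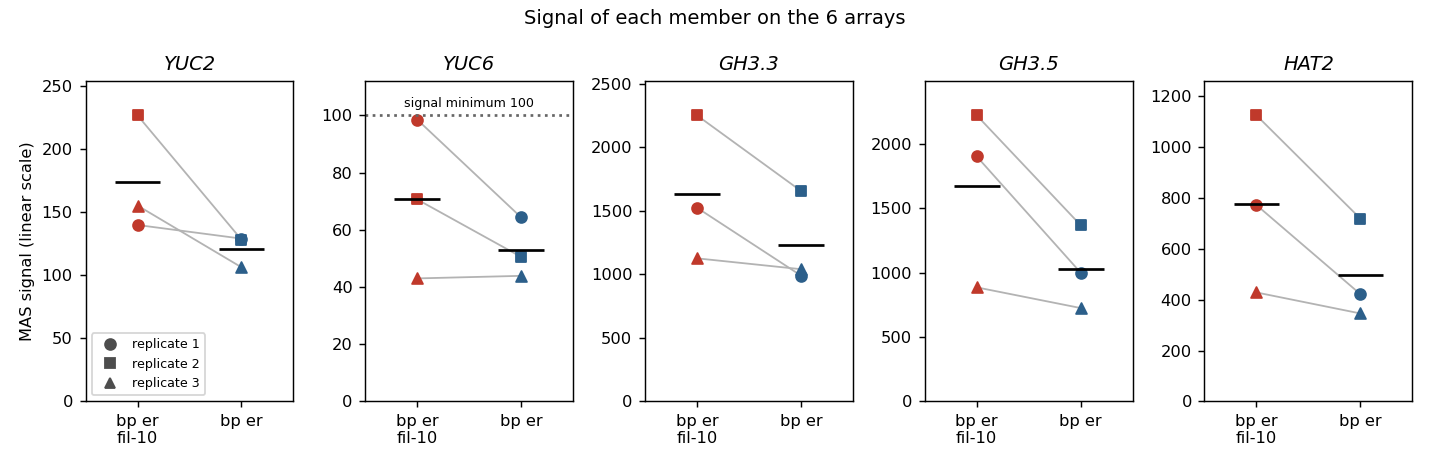
MAS signal (vertical axis, linear scale from 0, a scale of its own for each gene) of the 5 genes on the 3 *bp er fil-10* arrays (red) and the 3 *bp er* arrays (blue). Symbols mark the replicate number, grey lines join arrays of the same number and black bars are means. The *YUC2* signals of *bp er fil-10*, 139.7 to 226.5, lie above those of *bp er*, 106.2 to 128.9, and *YUC6* stays under 100 on all 6 arrays.

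*YUC2*, the auxin synthesis gene with signals above the minimum, had 139.7, 226.5 and 155.1 on *bp er fil-10* arrays 1, 2 and 3, against 128.9, 128.1 and 106.2 on *bp er* arrays 1, 2 and 3. The genotypes did not overlap, but the nearest pair, 139.7 and 128.9, lay close together, and replicate 2 of *bp er fil-10* stood above all others. The mean signal was 173.8 ± 46.3 in *bp er fil-10* and 121.1 ± 12.9 in *bp er* (SD, n = 3 arrays each), a ratio of 1.44. The log2 difference was 0.49 (SE 0.29), with a 95% interval of −0.17 to 1.16 and a limma adjusted p of 0.414. As large a difference or a larger one in this direction, higher in *bp er fil-10*, was seen in 12.6% of the probe sets kept. The interval therefore leaves room for no difference and for one beyond a doubling of the signal.

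*YUC6*, which encodes another YUCCA monooxygenase, had 98.5, 70.6 and 43.0 in *bp er fil-10*, against 64.3, 50.5 and 43.9 in *bp er*. Both genotypes were under 100 on all arrays, and replicate 3 was the lowest array of each. The mean signal was 70.7 ± 27.8 in *bp er fil-10* and 52.9 ± 10.4 in *bp er* (SD, n = 3 each), and the difference of the mean log2 signals was 0.36. It was not tested, because no array reached the minimum.

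*GH3.3*, the gene of an IAA-amido synthetase, had 1524.2, 2250.9 and 1125.8 in *bp er fil-10*, against 990.2, 1656.0 and 1040.4 in *bp er*. Replicate 2 was the highest array of each genotype, and the *bp er* replicate 2 array lay above both other *bp er fil-10* arrays. Means were 1633.6 ± 570 in *bp er fil-10* and 1228.9 ± 371 in *bp er* (SD, n = 3 each), a ratio of 1.33. The log2 difference of 0.39 (SE 0.29, 95% interval −0.26 to 1.05) was smaller than the SD between *bp er fil-10* arrays, 0.50, and had a limma adjusted p of 0.514.

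*GH3.5*, whose product joins amino acids to indole-3-acetic acid and is also known to act on salicylic acid, had 1904.5, 2224.0 and 886.7 in *bp er fil-10*, against 1000.5, 1369.6 and 725.8 in *bp er*. Replicates 1 and 2 of *bp er fil-10* were above every *bp er* array, whereas its replicate 3 was below replicates 1 and 2 of *bp er*. Means were 1671.7 ± 698 in *bp er fil-10* and 1032.0 ± 323 in *bp er* (SD, n = 3 each), a ratio of 1.62. Its log2 difference, 0.64 (SE 0.36, 95% interval −0.18 to 1.46), was the largest of the 5. It was smaller than the log2 SD between *bp er fil-10* arrays, 0.71, and larger than that between *bp er* arrays, 0.46. A difference as large in this direction was reached or passed by 7.05% of the probe sets kept. The limma adjusted p was 0.397.

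*HAT2*, the auxin-inducible homeobox gene, had 772.7, 1125.7 and 428.8 in *bp er fil-10*, against 421.8, 719.1 and 346.1 in *bp er*. The array order was that of *GH3.5*, with replicate 2 highest and replicate 3 lowest in both genotypes. Means were 775.7 ± 348 in *bp er fil-10* and 495.7 ± 197 in *bp er* (SD, n = 3 each), a ratio of 1.57. The log2 difference was 0.61 (SE 0.38, 95% interval −0.25 to 1.47, limma adjusted p = 0.441), and 7.93% of the probe sets kept had one as large in this direction. It was smaller than the log2 SD between *bp er fil-10* arrays, 0.70, and larger than that between *bp er* arrays, 0.55.

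Within replicate numbers, *GH3.3*, *GH3.5* and *HAT2* were higher in *bp er fil-10* each time. For *GH3.5* the log2 difference of *bp er fil-10* minus *bp er* was 0.93, 0.70 and 0.29 within numbers 1, 2 and 3. For *HAT2* it was 0.87, 0.65 and 0.31, and for *GH3.3* it was 0.62, 0.44 and 0.11. In these response genes it was thus largest within number 1 and smallest within number 3. *YUC2* had its largest difference elsewhere, with 0.12, 0.82 and 0.55. *YUC6* had 0.62, 0.48 and −0.03, so that its genotypes were level within number 3. In all, 4 of the 5 genes were higher in *bp er fil-10* within every number, as were 25.1% of the probe sets kept.

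With the replicate number as a block, limma passed none of the 4 tested genes at an adjusted p under 0.05. It passed 3.74% of the probe sets kept, and 1.6% of those kept were passed as higher in *bp er fil-10*. The adjusted p with the block was 0.0687 for *GH3.5* (95% interval 0.26 to 1.02), 0.0896 for *HAT2* (0.22 to 1.00), 0.187 for *GH3.3* (0.04 to 0.75) and 0.403 for *YUC2* (−0.22 to 1.21). Unadjusted, 3 of the 4 had a p under 0.05 in this fit, as had 22% of the probe sets kept. The block narrowed the intervals of *GH3.3*, *GH3.5* and *HAT2* and widened that of *YUC2*.

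**Figure D2:**
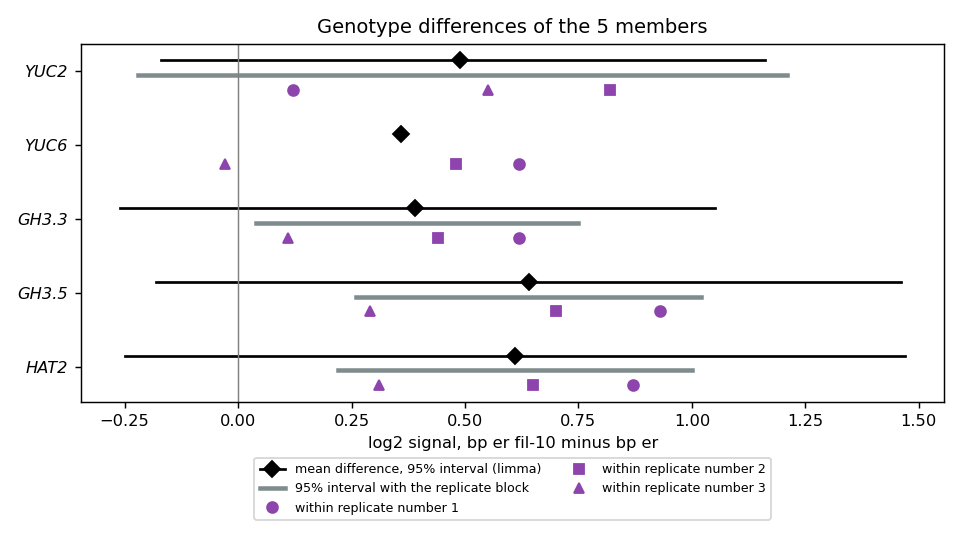
Difference of the log2 signal, *bp er fil-10* minus *bp er* (horizontal axis), of the 5 genes. Black diamonds are mean differences with limma's 95% interval (none for *YUC6*, which was not tested), grey bars the 95% interval with the replicate number as a block, and purple symbols the difference within each replicate number. The black intervals of *YUC2*, *GH3.3*, *GH3.5* and *HAT2* all include 0, and the grey ones of *GH3.3*, *GH3.5* and *HAT2* do not.

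The 3 response genes also varied between the arrays of 1 genotype. The log2 range over the 3 arrays was 1.33 in *bp er fil-10* and 0.92 in *bp er* for *GH3.5*, 1.39 and 1.06 for *HAT2*, and 1.00 and 0.74 for *GH3.3*, in the same order of genotypes. In *bp er fil-10*, the replicate 3 array of *GH3.5* was lower than the mean of replicates 1 and 2 by 1.21 on the log2 scale (difference −1.21), and in *bp er* it was lower there too (difference −0.69). *HAT2* gave −1.12 in *bp er fil-10* and −0.67 in *bp er*, and *GH3.3* gave −0.72 and −0.30 in the same order. The mean shift of both genotypes was −0.95 for *GH3.5* and −0.90 for *HAT2*, and as low a shift was seen in 3.99% and 4.37% of the probe sets kept. It was −0.51 for *GH3.3*, reached by 10.6%. *YUC2* moved less, by −0.20 in *bp er fil-10* and −0.27 in *bp er*, and 24.6% of the probe sets kept had as low a shift.

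Without both replicate 3 arrays, *GH3.5* passed limma's test, with a log2 difference of 0.81 (adjusted p = 0.015, 2 arrays per genotype). In that fit 9.59% of the probe sets kept passed, and 4.77% of those kept passed as higher in *bp er fil-10*. *HAT2* had 0.76 (adjusted p = 0.081), *GH3.3* had 0.53 (0.184) and *YUC2* had 0.47 (0.44). The labels say nothing of what sets replicate 3 apart.

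**Figure D3:**
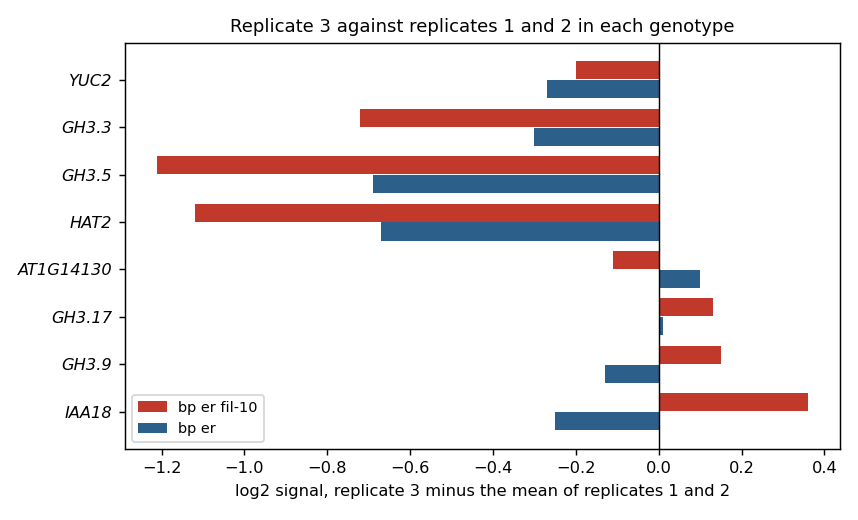
Log2 signal of the replicate 3 array minus the mean of replicates 1 and 2 (horizontal axis) in *bp er fil-10* (red, upper bar) and *bp er* (blue, lower bar), for the 4 tested genes and, below them, the 4 other genes of the auxin lists above the signal minimum. *GH3.5* and *HAT2* lie at −0.67 or lower in both genotypes, while AT1G14130, *GH3.17*, *GH3.9* and *IAA18* lie between −0.25 and 0.36.

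Over the 6 arrays the profile of *HAT2* was close to those of *GH3.5* and *GH3.3*. The log2 signals of *HAT2* correlated at r = 0.974 with *GH3.5* and at 0.971 with *GH3.3* (Pearson, n = 6 arrays, Spearman's rho 0.943 and 0.886), and *GH3.3* and *GH3.5* at 0.899 (rho 0.771). Ranked by r with *HAT2* among the 14455 other probe sets kept, *GH3.5* was number 15 and *GH3.3* number 25. The pair of GH3 genes ranked lower with each other, *GH3.5* as number 134 by r with *GH3.3* and *GH3.3* as number 490 by r with *GH3.5*. With each genotype's mean removed, the values were 0.966, 0.964 and 0.869, and over the 4 arrays of replicates 1 and 2 they were 0.950, 0.985 and 0.883. The points share the 6 arrays with the genotype difference and the replicate shift given above. *YUC2* correlated at 0.750 with *HAT2*, 0.740 with *GH3.3* and 0.707 with *GH3.5*, and *YUC6* at 0.782 with *GH3.5*, 0.624 with *HAT2* and 0.342 with *YUC2*. By r, the profiles of the synthesis genes thus lay further from the response genes and from each other. By Spearman's rho, *YUC6* was closer to *GH3.5* (0.829) than *GH3.3* was (0.771). The *YUC6* signals were all under 100.

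**Figure D4:**
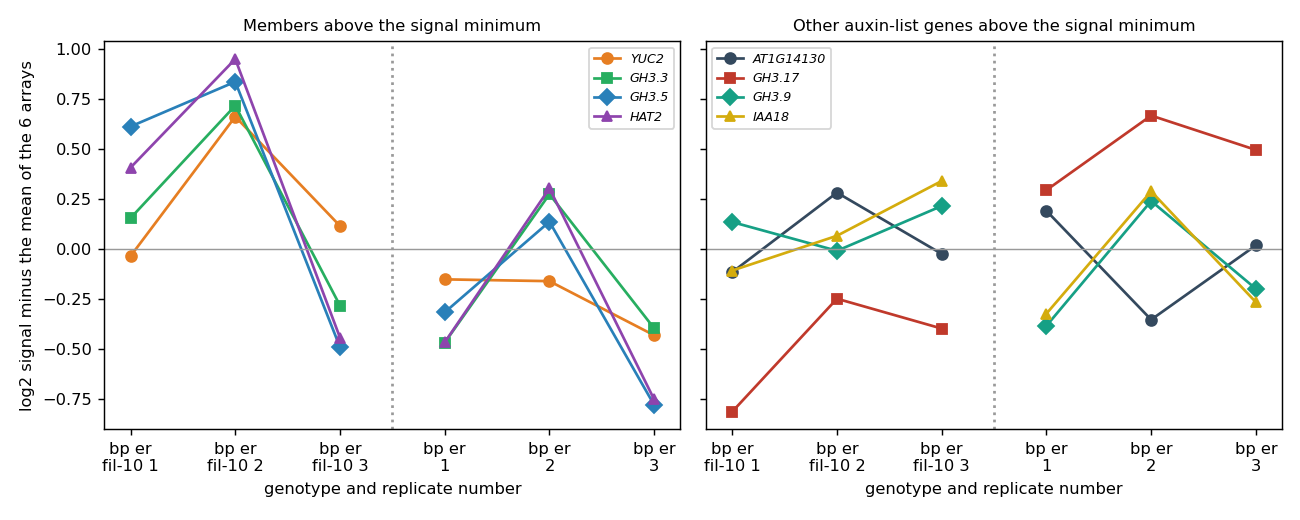
Log2 signal of each array minus the gene's mean over the 6 arrays (vertical axis), by genotype and replicate number (horizontal axis, *bp er fil-10* left of the dotted line and *bp er* right of it, with lines to guide the eye). Left, *GH3.3*, *GH3.5* and *HAT2* peak on replicate 2 of each genotype, and *YUC2* on replicate 2 of *bp er fil-10*. Right, *GH3.17* lies lower on all 3 *bp er fil-10* arrays, and the other genes of the auxin lists show no common profile.

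The named genes whose 6 log2 signals were most like each member's were as follows. For *HAT2* they were AT3G25990 (r = 0.995), AT3G60310 (0.989) and *SCPL49* (0.987), a serine carboxypeptidase-like gene. For *GH3.3* they were AT3G60310 (0.994), the tetraspanin gene *TET8* (0.989) and AT3G25990 (0.977). *GH3.5* was followed by AT1G01770 (0.997), *SCPL49* (0.995) and *MCCA* (0.994), which encodes a subunit of methylcrotonyl-CoA carboxylase in leucine breakdown. *HAT2* therefore shared AT3G25990 and AT3G60310 with *GH3.3*, and *SCPL49* with *GH3.5*. *YUC2* had the fruit patterning gene *ALC* (0.989), AT4G14100 (0.982) and AT1G20540 (0.978). *YUC6* had AT1G24440 (0.995), AT1G74840 (0.979) and AT2G41080 (0.963), none of them shared with another member. These are the highest of many values over 6 arrays and describe these arrays only.

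*MCCA* had 2032.0, 2044.0 and 593.2 in *bp er fil-10*, against 732.7, 1096.6 and 464.9 in *bp er*. It thus shared the low replicate 3 array of *GH3.5* in both genotypes and overlapped between them. Its log2 difference was 0.91 (limma adjusted p = 0.383). With the replicate block the limma adjusted p was 0.0499, just under the threshold, where 1.6% of the probe sets kept were called higher. *MCCA* was picked for its likeness to *GH3.5*, so its difference is not independent of that of *GH3.5*.

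*GH3.17* (AT1G28130), the gene of another IAA-amido synthetase, was lower in *bp er fil-10*, opposite in direction to *GH3.3* and *GH3.5*. It had 120.5, 178.2 and 160.7 in *bp er fil-10*, against 259.6, 336.1 and 298.4 in *bp er*. The genotypes did not overlap, as in 9.13% of the probe sets kept in this direction, and the difference was −1.11, −0.92 and −0.89 within numbers 1, 2 and 3. The mean signal was 153.1 ± 29.6 in *bp er fil-10* and 298 ± 38.3 in *bp er* (SD, n = 3 each). The log2 difference of −0.97 (SE 0.23, 95% interval −1.50 to −0.45) had a limma adjusted p of 0.134 and, with the replicate block, of 0.0499, just under the threshold, where 2.13% of the probe sets kept were called lower. The gene is also in a list that the study drew from these same arrays, so its direction is not independent evidence.

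Other genes of conjugation and inactivation showed no such separation. *GH3.9*, a further member of the GH3 family, had 128.0 to 149.5 in *bp er fil-10* and 98.7 to 152.1 in *bp er* (log2 difference 0.23, limma adjusted p = 0.729). AT1G14130, listed with the inactivation genes, had 277.2 to 365.1 in *bp er fil-10* and 235.1 to 342.8 in *bp er* (0.10, limma adjusted p = 0.844). For both, the arrays of the genotypes overlapped. *GH3.1*, AT1G14120 and *UGT84B1*, which encodes a glucosyltransferase of indole-3-acetic acid, were under 100 on all 6 arrays and were not tested. Of 12 genes in this list, 8 had a named probe set and 5 were kept. Their median log2 difference was 0.23, beside 0.06 over all probe sets kept. The test passed 0 in either direction, or 1 lower with the block, where 2.13% of all probe sets kept were called lower.

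The other YUCCA genes with a named probe set were under the minimum throughout. *YUC4* had 36.4, 47.7 and 35.0 in *bp er fil-10*, against 37.5, 17.7 and 11.5 in *bp er*. *YUC11* had 6.6 to 15.6 in *bp er fil-10* and 2.3 to 16.4 in *bp er*. With *YUC2* and *YUC6* these make 4 of the 14 listed genes of the indole-3-pyruvate route, of which *YUC2* alone was tested. Among class II homeodomain-leucine zipper genes, *HAT2* was the only one of 10 with a named probe set.

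Aux/IAA proteins repress auxin response. Many of them, but not all, are broken down when the hormone binds its receptor, and many of their genes are themselves auxin-induced. Of 29 listed, 7 had a named probe set, and *IAA18* alone was kept. It had 455.4, 513.7 and 621.1 in *bp er fil-10*, against 392.2, 599.2 and 408.1 in *bp er*, with overlap (log2 difference 0.20, limma adjusted p = 0.665). *IAA29* had 69.5, 25.9 and 3.8 in *bp er fil-10*, against 10.1, 7.1 and 6.7 in *bp er*, all under 100. *IAA30* had 19.0 to 41.2 in *bp er fil-10* and 41.5 to 70.2 in *bp er*, without overlap but also under 100. *IAA31* had 3.2 to 77.2 in *bp er fil-10* and 33.1 to 118.4 in *bp er*, and reached 100 on 1 array. *IAA20*, *IAA33* and *IAA34* were under 100 on every array.

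Over the 10 auxin lists, 20 genes had a named probe set and 8 of them were kept, 7 with a positive log2 difference and with a median of 0.31, beside 8150 positive and a median of 0.06 among the 14456 probe sets kept. The members are 4 of these 8, so this count is not a second line of evidence. Among these 8, the genotypes did not overlap for 1 gene that was higher, *YUC2* (14.2% of all probe sets kept), and for 1 that was lower, *GH3.17* (9.13%). The test passed 0 of the 8 without the block and 1, *GH3.17*, with it, where 2.13% of all probe sets kept were called lower. The remaining 6 lists, of acetaldoxime-route synthesis, conjugate hydrolysis, receptors, response factors, transport and SAUR genes, had no named probe set and were not analysed here.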

How the data were processed

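Inflorescence RNA of *bp er fil-10* and *bp er* (3 Affymetrix ATH1 arrays each) was measured by the authors as a MAS signal intensity per probe set with GCOS (version not given in the sources used here), scaled linearly to a target of 500. The deposited intensity is linear, and detection calls were not used here. Here 64 control probe sets were left out, 1 signal under 0.1 was raised to 0.1, signals were converted to log2, and probe sets that reached a signal of 100 on 3 or more arrays were kept. limma 3.58.1 was used to compare the genotypes (R 4.3.3, lmFit, eBayes with an intensity trend, 2-sided, Benjamini-Hochberg over all 14456 probe sets kept). The fit was run on simulated data with independent noise for each probe set and array. These had no shift shared by arrays of the same replicate number, so they cannot show how the fit behaves under such a shift. Differences are *bp er fil-10* minus *bp er*. Tables were made with Python 3.11.15, pandas 2.3.3 and numpy 2.4.6. The number of arrays limits the precision.

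The annotation lists 14016 probe sets, 13436 of them matched to 1 gene of the TAIR 10.1 gene table. Probe sets that it does not list carry no name here. Members, lists and tests were chosen with earlier results of these data known. Named genes are the 5 members, every gene of a list with up to 8 named probe sets, and the 3 named probe sets most correlated with each member. The tissue markers come from lists of their own, and *SHI*, *LBD16* and *LBD29* fall outside this rule and were chosen after their values were seen.

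With the genotype means subtracted, arrays of number 1, 2 and 3 correlated across genotypes at 0.103, 0.221 and 0.380, each over 0.1. Differences within replicate numbers and a fit with the number as a block were therefore given as well. The main limma fit did not use the number, nor did any interval or adjusted p not marked as with the block. The basis for pairing is narrow: *bp er* replicate 1 correlated more with *bp er fil-10* replicate 2 (0.183), and *bp er* replicate 2 more with *bp er fil-10* replicate 1 (0.225). The deviations of the 3 arrays of a genotype sum to 0, so a match of the replicate 3 arrays by itself raises the values among numbers 1 and 2. Values over 0.1 for numbers 1 and 2 therefore cannot show that those arrays pair by number. Alternatives were no signal minimum, signals raised to 100, quantile normalization, no trend, the block, arrays left out and the ratio of mean signals. Adding the block to quantile normalization, and all alternatives for *GH3.17*, were chosen after the data were seen.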

Additional observations from a re-analysis of the deposited data

How the results depend on the processing

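Over all probe sets kept, limma passed 1 at an adjusted p under 0.05, and 540 with the replicate block, 532 with the block after quantile normalization and 18 with signals under 100 raised to 100. With arrays left out the count ranged from 0 to 1386: it was 123 without *bp er fil-10* replicate 3, 10 without *bp er* replicate 3, 7 without *bp er fil-10* replicate 2, 2 without *bp er fil-10* replicate 1, 1386 without both replicate 3 arrays, and 0 without both arrays of replicate 1 or of replicate 2. Of the auxin lists, 0 genes passed, and 1 (*GH3.17*) with the replicate block, which passed 3.74% of all probe sets kept. *GH3.5* differed by 0.38 to 1.04 with arrays left out, and passed the test only without both replicate 3 arrays (0.81). The other members passed in no alternative and stayed higher in *bp er fil-10* with arrays left out, *YUC2* by 0.29 to 0.68, *GH3.3* by 0.13 to 0.63, *HAT2* by 0.29 to 0.98 and *YUC6*, untested, by 0.08 to 0.67. With signals under 100 raised to 100, the *YUC6* difference was 0.00 by construction, and no fit with the block or without the trend was made for this gene. The block changed the call of no member. *GH3.17* also passed with the block after quantile normalization (adjusted p = 0.0369) and in none of the other alternatives, where its adjusted p ranged from 0.0515 to 0.742. The cause of these changes was not tested.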

Other observations

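Further auxin-linked regulators with a named probe set were looked up after their values were seen. *SHI* (AT5G66350), a zinc finger regulator of the family known to activate auxin synthesis genes in flowers, had 97.0, 119.7 and 94.3 in *bp er fil-10*, against 148.8, 167.9 and 185.4 in *bp er*. The genotypes did not overlap, as in 9.13% of the probe sets kept in this direction, and 1 of 3 *bp er fil-10* arrays and 3 of 3 *bp er* arrays reached the signal minimum of 100. *SHI* was lower in *bp er fil-10* within every replicate number, with log2 differences of −0.62, −0.49 and −0.98. Its log2 difference was −0.69, with a 95% interval of −1.33 to −0.05, and of −1.45 to 0.06 with the replicate block. *SHI* did not pass limma's test over all probe sets kept (adjusted p = 0.262, and 0.265 with the replicate block). *LBD16* and *LBD29*, which are induced by auxin in roots, were under 100 on all 6 arrays.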
